A study of Homo sapiens with 3 samples.

Results

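Plasmin and the matrix metalloproteinases break down the matrix around a cell, and cells keep both in check with secreted inhibitors. Urokinase (PLAU) and tissue plasminogen activator (PLAT) cleave plasminogen to plasmin, and urokinase does so on the cell surface while bound to its receptor, PLAUR. SERPINE2, or protease nexin-1, is a serpin that traps urokinase, tissue plasminogen activator, plasmin and thrombin. MMP14 is a membrane-anchored collagenase that also activates pro-MMP2, and TIMP1, TIMP2 and TIMP3 are secreted tissue inhibitors of metalloproteinases. These 8 genes were chosen by name and make up 8 of the 58735 genes counted.

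The genes were measured by RNA-sequencing in A549, an established human lung adenocarcinoma cell line grown in F12K medium with serum, in 3 libraries. There was 1 library of control cells (Control-sh) and 1 for each of 2 shRNAs against DDX24, an RNA helicase (DDX24-sh1 and DDX24-sh2). By the study's methods, cells were infected with lentiviral pLKO.1 vectors, selected as stable lines and kept under puromycin, with the empty vector as control, whereas a legend names a control shRNA. Each condition had 1 library, so there was no replicate and no test between conditions, and the state of the single control culture cannot be told apart from an effect of the shRNAs. Intervals given here are exact 95% intervals from counts. They cover counting error only, and the study's methods state no use of molecular identifiers, so several reads may come from 1 molecule.

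Total counts ran from 17218884 to 18337471 per library. The names of the shRNA libraries differed between the kinds of values deposited: FPKM times gene length over count lay within 1% of a constant for 100% of genes with at least 50 counts when FPKM named DDX24-sh1 was set against counts named DDX24-sh2, and the reverse, but for 5.23% and 5.17% of genes with the names as given. It is not known which name is right, so DDX24-sh1 and DDX24-sh2 stand for the libraries whose counts carry those names, and exchanging them would exchange all values of the shRNA libraries below. DDX24 itself had 2010 counts in the control library and 637 and 765 in those of DDX24-sh1 and DDX24-sh2, which is 0.296-fold and 0.360-fold the control level, and under either naming both libraries were low. Epithelial keratins were abundant, with KRT8 between 63926 and 69499 counts. Other epithelial markers were lower. EPCAM was scarce, at 32 counts in the control and 29 in each shRNA library. CDH1 stood at 538 in the control, 358 with DDX24-sh1 and 261 with DDX24-sh2. Lung alveolar type II cells, the cell type A549 is often taken to model, were represented by 6 markers. SFTPA1 and NKX2-1 had 0 counts in every library, SFTPB 0, 2 and 3, SFTPC 3, 4 and 4 and LAMP3 13, 2 and 8, while ABCA3, a lipid transporter, had 1421, 1512 and 1137. Markers of fibroblasts, which also make serpins and TIMPs, summed over 6 genes to 11.1 CPM in the control, 16.2 with DDX24-sh1 and 12.8 with DDX24-sh2. Most of that came from COL1A1, with 139, 174 and 143 counts. LUM had 27, 80 and 68 counts, COL3A1 2, 27 and 8, PDGFRB 21, 15 and 9, COL1A2 0, 0 and 3, and DCN 1, 1 and 0. Their part in the values of the 8 genes, some of which were also highest in DDX24-sh1, was not tested. Leukocyte markers summed to between 4.43 and 8.32 CPM, nearly all from CD14 with 139, 108 and 75 counts, while PTPRC and CD3E had 0 in every library. Endothelial markers summed to between 0.609 and 1.05 CPM.

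All 8 genes were detected in every library, and all 8 averaged 1 CPM or more (CPM being the count scaled by TMM to a common library size), as did 13984 genes in all. Their levels per length were widely spread. In Control-sh the level in RPKM, the CPM divided by gene length in kilobases, was 79.7 for TIMP2, 65.9 for TIMP1, 61.1 for PLAU, 19.7 for SERPINE2, 9.10 for PLAUR, 1.71 for PLAT, 0.459 for MMP14 and 0.446 for TIMP3. TIMP1 stood just above PLAU there (ratio 1.08, interval 1.02 to 1.15), and MMP14 and TIMP3, which rested on 35 counts each, were not separated by counting error (1.03, 0.627 to 1.70). The order was the same in DDX24-sh2, and in DDX24-sh1 TIMP3 (0.475) stood above MMP14 (0.441), again within counting error. TIMP2, TIMP1 and PLAU were higher than 96.8%, 95.9% and 95.5% of the 13984 genes in Control-sh, whereas MMP14 and TIMP3 were higher than 8.01% and 7.67%. Urokinase, TIMP1 and TIMP2 were thus among the abundant transcripts, and MMP14 and TIMP3 among the rare ones. Gene lengths are those of all annotated exons together, from 1541 nt for TIMP1 to 8891 nt for SERPINE2, so a gene whose cells use short transcripts is set too low on this scale.

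**Figure D1:**
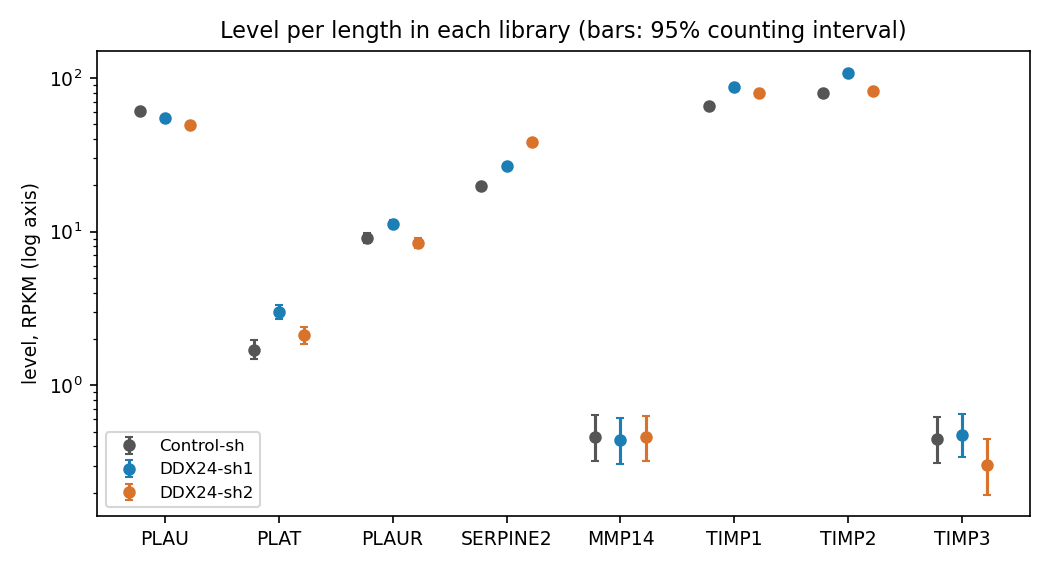
Level of each gene per length (RPKM, log axis) in the 3 libraries, 1 point for each library, with bars for the 95% counting interval. SERPINE2 stands at 19.7 in the control, 26.7 with DDX24-sh1 and 38.0 with DDX24-sh2, and MMP14 and TIMP3 lie under 1 RPKM in all libraries.

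No gene of the 8 was 2-fold higher or lower in both shRNA libraries, against 1.19% of the 13984 genes that were higher and 1.38% that were lower. In either library alone the count was also 0 of 8, where 2.32% (DDX24-sh1) and 2.89% (DDX24-sh2) of all genes were 2-fold higher and 2.27% and 3.07% 2-fold lower. The differences were smaller, and for 5 genes they lay beyond counting error in both libraries with the same sign. SERPINE2, PLAT, TIMP1 and TIMP2 were higher than in Control-sh, 4 of 8 genes where 14.0% of all genes had both intervals above 0. PLAU was lower, 1 of 8 genes where 20.6% of all genes had both intervals below 0. Among genes averaging 10 CPM or more, which leaves out MMP14 and TIMP3, these are 4 and 1 of 6 genes against 16.1% and 25.8%. Both ratios of a gene share the control library, so these are not separate comparisons. An interval clears 0 more easily with more counts, and these shares are not matched to the depth of the 8 genes. TIMP2 counts among the 4 with a log2 ratio of only 0.053 (interval 0.0082 to 0.0978) in DDX24-sh2. In DDX24-sh1 alone, 5 of the 8 had an interval above 0 (23.6% of all genes), the fifth being PLAUR, and in DDX24-sh2 alone 4 had (23.6%). PLAU was the only one of the 8 with an interval below 0 in either library, where 29.5% and 30.8% of all genes had one. The median log2 ratio of the 8 genes was 0.35 with DDX24-sh1 and 0.03 with DDX24-sh2, and that of all genes was -0.02 and -0.03.

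**Figure D2:**
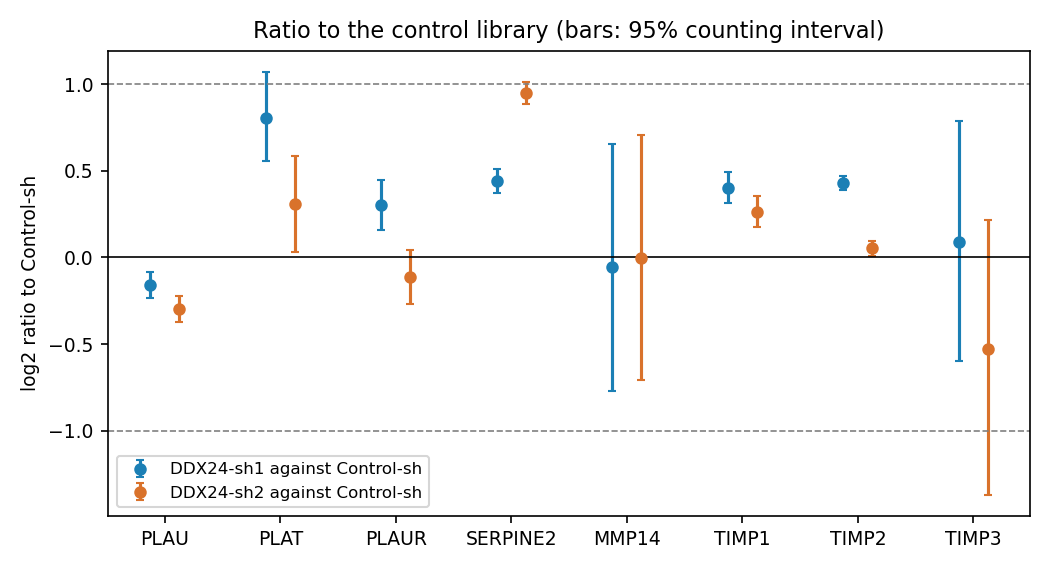
Log2 ratio of each gene to Control-sh in DDX24-sh1 and DDX24-sh2, with bars for the 95% counting interval and dashed lines at 2-fold. SERPINE2 reaches 0.95 in DDX24-sh2, PLAU lies below 0 in both libraries, and the bars of MMP14 and TIMP3 span 0 in both.

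SERPINE2, the serpin of the 8, had the largest ratio in DDX24-sh2. The gene (ENSG00000135919) is on chromosome 2, minus strand, at 223975112 to 224039319 (GRCh38). RefSeq gives it an outer start at 224038640 and an inner one at 224031478, and bases before both are shown because it is the gene with the largest ratio, together with those of TIMP1, which was also higher in both libraries. Only bases before the start that no GENCODE 29 exon covers are printed, from the GRCh38.p14 table, 5′ to 3′ on the strand of the gene, with capitals for GGGCGG (a GC box) and CCAAT on either strand.
SERPINE2 inner start, chr2:224031479-224031728, minus strand: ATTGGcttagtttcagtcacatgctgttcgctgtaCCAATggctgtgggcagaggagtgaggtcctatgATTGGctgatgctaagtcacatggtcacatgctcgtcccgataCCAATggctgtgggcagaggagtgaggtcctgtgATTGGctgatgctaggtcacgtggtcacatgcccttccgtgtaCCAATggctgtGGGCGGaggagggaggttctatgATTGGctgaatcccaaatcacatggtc
SERPINE2 outer start, chr2:224038805-224038890, minus strand: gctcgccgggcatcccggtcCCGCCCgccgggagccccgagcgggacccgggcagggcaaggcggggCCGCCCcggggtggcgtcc
TIMP1, chrX:47582186-47582312, plus strand: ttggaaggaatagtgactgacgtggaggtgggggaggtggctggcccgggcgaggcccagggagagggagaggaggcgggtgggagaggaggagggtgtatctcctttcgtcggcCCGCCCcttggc
In windows of 250 bases before to 50 after each start, the inner SERPINE2 start held CCAAT 7 times, and 0.0228% of the 35116 windows of all genes (8 windows) held it as often. That motif was looked at after its letters were seen. In the printed bases a stretch holding CCAAT and ATTGG recurs with small changes, so the 7 matches are not independent of each other. GGGCGG was found on either strand in 1 of the 2 PLAU windows, both SERPINE2 windows and the windows of MMP14, TIMP1 and TIMP3. It was absent from the other PLAU window and from the PLAUR window, and 45.0% of all windows hold it. TGANTCA (AP-1 letters, in 7.71% of all windows) was found only in the PLAUR window among the 8 windows at hand. TATAAA (11.5%), GGGNNTTCC (6.58%), TGACGTCA (1.85%) and CATTCC (14.0%) matched in none of them. The counts do not tell which start the cells used.

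SERPINE2 had 2984 counts in the control, 4345 with DDX24-sh1 and 6100 with DDX24-sh2, or 174.8, 237.5 and 337.9 CPM. The 3 libraries thus stood in that order with no overlap of their counting intervals. Its log2 ratio reached 0.44 (interval 0.37 to 0.51) with DDX24-sh1 and 0.95 (0.89 to 1.01) with DDX24-sh2. In DDX24-sh2 only 3.23% of the 13984 genes had a higher log2 ratio, in DDX24-sh1 11.7%. SERPINE2 was also the single gene of the 8 with more in DDX24-sh2 than in DDX24-sh1 beyond counting error, by 0.51 (0.45 to 0.57), as 21.0% of all genes were. This last comparison does not use the control library.

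The activators differed in direction. PLAU (ENSG00000122861, plus strand of chromosome 10, 73909177 to 73917497) had 3074, 2952 and 2643 counts in the control, DDX24-sh1 and DDX24-sh2 libraries, the order used from here on, or 180.1, 161.4 and 146.4 CPM. It was highest in the control and lowest in DDX24-sh2. The log2 ratios were -0.16 (interval -0.23 to -0.08) and -0.30 (-0.37 to -0.22), which is a level lower by 10.4% and 18.7%. Such ratios were ordinary among all genes, since 65.5% and 77.1% of them had a higher ratio. C10orf55 shares 916 exon bases with PLAU on the opposite strand and had 3, 6 and 18 counts. Whether counting used the strand is not stated, so reads from the shared bases cannot be assigned to either gene with certainty.

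PLAT (ENSG00000104368, minus strand of chromosome 8, 42175233 to 42207724) was higher where PLAU was lower. It had 193, 363 and 253 counts, or 11.3, 19.8 and 14.0 CPM, lowest in the control and highest in DDX24-sh1. Its log2 ratio of 0.81 (interval 0.56 to 1.07) in DDX24-sh1 was the largest of the 8 in that library, and 4.00% of all genes had a higher one. In DDX24-sh2 it was 0.31 (0.03 to 0.59), whose lower end is close to 0. Even so urokinase transcripts stayed the more abundant per length, 35.7 to 1 against PLAT in the control, 18.2 with DDX24-sh1 and 23.4 with DDX24-sh2.

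The urokinase receptor had no common direction. PLAUR (ENSG00000011422, minus strand of chromosome 19, 43646095 to 43670547), a lipid-anchored surface protein, had 692, 914 and 677 counts, or 40.5, 49.97 and 37.5 CPM. The DDX24-sh1 library stood above the other libraries. Its log2 ratio was 0.30 (interval 0.16 to 0.45) with DDX24-sh1 and -0.11 (-0.27 to 0.04) with DDX24-sh2, where a difference from the control was not detectable at this depth.

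MMP14 (ENSG00000157227, plus strand of chromosome 14, 22836557 to 22849027) was scarce in all libraries, with 35, 36 and 37 counts, or 2.05, 1.97 and 2.05 CPM. The log2 ratios of -0.06 (interval -0.77 to 0.65) and -0.00050 (-0.71 to 0.71) were close to 0. Their intervals reach beyond 1.5-fold either way, so a change of that size could not be seen at this depth.

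Of the inhibitors, TIMP1 and TIMP2 were higher in both shRNA libraries and TIMP3 could not be resolved. TIMP1 (ENSG00000102265, plus strand of chromosome X, 47582313 to 47586789) had 1733, 2456 and 2202 counts, or 101.5, 134.3 and 122.0 CPM. Both shRNA libraries lay above the control, and DDX24-sh1 lay highest. The log2 ratios were 0.40 (interval 0.31 to 0.49) and 0.26 (0.17 to 0.36). The TIMP1 gene lies in SYN1, a neuronal gene on the opposite strand that shares no exon base with it and had 8, 5 and 2 counts.

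TIMP2 (ENSG00000035862, minus strand of chromosome 17, 78852977 to 78925387), which besides inhibiting MMPs holds pro-MMP2 to MMP14, had the highest level per length of the 8 in every library, though in DDX24-sh2 it was not separated from TIMP1 (ratio 1.04, interval 0.996 to 1.09). It had 7661, 11062 and 8405 counts, or 448.8, 604.8 and 465.6 CPM. The DDX24-sh1 library stood well above the other libraries, which lay close together. Its log2 ratio was 0.43 (interval 0.39 to 0.47) with DDX24-sh1 and 0.05 (0.01 to 0.10) with DDX24-sh2, a level higher by 34.7% and 3.74%, and 40.7% of all genes had a higher ratio than the latter. CEP295NL shares 198 exon bases with TIMP2 on the same strand and had 5, 5 and 20 counts. AC022966.1 shares 367 exon bases with TIMP2 on the opposite strand and had 0 counts in every library. As for PLAU, reads from the shared bases cannot be assigned to either gene with certainty.

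TIMP3 (ENSG00000100234, plus strand of chromosome 22, 32801701 to 32863043), the inhibitor that binds to the matrix, had 35, 40 and 25 counts, or 2.05, 2.19 and 1.39 CPM. The log2 ratios were 0.09 (interval -0.60 to 0.79) and -0.53 (-1.37 to 0.22), and neither could be told from 0. Summed per length, TIMP1, TIMP2 and TIMP3 came to 146.02 RPKM in the control, 194.97 with DDX24-sh1 and 162.1 with DDX24-sh2. TIMP2 made up 54.6%, 55.1% and 51.0% of that sum, TIMP1 45.1%, 44.7% and 48.8%, and TIMP3 0.305%, 0.244% and 0.186%. Counts in a bulk library do not tell fewer expressing cells from less RNA in each cell, here or for any gene above.

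**Figure D3:**
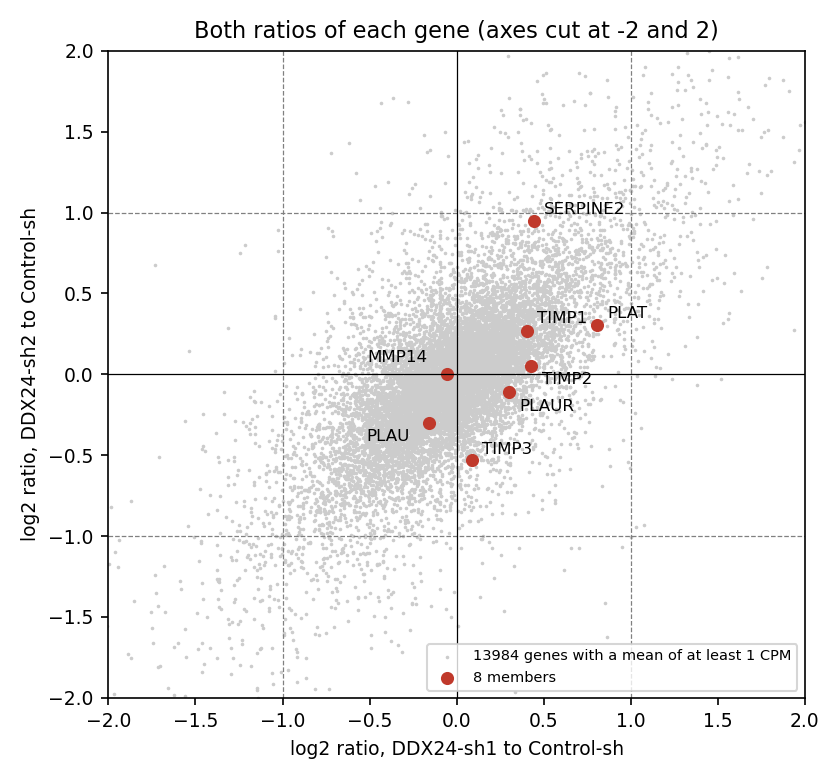
Log2 ratio to Control-sh in DDX24-sh1 (x axis) against that in DDX24-sh2 (y axis) for the 13984 genes averaging 1 CPM or more (grey) and the 8 genes (red), with dashed lines at 2-fold. Both axes share the control library, 103 genes beyond 2 on either axis are not drawn, and the 8 genes lie within the dashed lines in both directions.

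The shRNA libraries also differed from each other. Against DDX24-sh1, the DDX24-sh2 library held less PLAT by a log2 ratio of -0.50 (interval -0.74 to -0.27), less PLAUR by -0.41 (-0.56 to -0.27) and less TIMP2 by -0.38 (-0.42 to -0.34). It also held less PLAU by -0.14 (-0.22 to -0.06) and less TIMP1 by -0.14 (-0.22 to -0.05). These 5 of 8 genes stand against 23.8% of all genes with an interval below 0 in that comparison. For MMP14 and TIMP3 the interval spanned 0. DDX24 counts themselves were higher in DDX24-sh2 than in DDX24-sh1, by 0.28 (0.13 to 0.44).

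Ratios between counts of genes within a library do not depend on how libraries are scaled, and 10 of them, chosen after the values were seen, were taken. SERPINE2 counts per PLAU count were 0.971 in the control, 1.47 with DDX24-sh1 and 2.31 with DDX24-sh2. These are 1.52-fold (interval 1.41 to 1.63) and 2.38-fold (2.22 to 2.55) the control ratio of serpin to urokinase. Against PLAT, its other activator target, SERPINE2 stood at 0.774-fold (0.643 to 0.930) of the control ratio in DDX24-sh1 and at 1.56-fold (1.28 to 1.90) in DDX24-sh2, so the libraries stood on opposite sides of the control. PLAU per PLAUR, the ligand against its receptor, was 4.44, 3.23 and 3.90 in counts, or 0.727-fold (0.650 to 0.814) and 0.879-fold (0.780 to 0.991) of the control. PLAU per PLAT was 0.511-fold (0.423 to 0.614) and 0.656-fold (0.537 to 0.800).

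Between the inhibitors, TIMP2 per TIMP1 was alike in Control-sh and DDX24-sh1, with 4.42 and 4.50 in counts and an interval of 0.951 to 1.09 for the fold. It was lower in DDX24-sh2, with 3.82 in counts and 0.863-fold (0.804 to 0.927). The ratios of TIMP1, TIMP2 and TIMP3 to MMP14 were 0.676-fold to 1.40-fold of the control, and all 6 intervals held 1 with MMP14 at 35 to 37 counts. TIMP1 per TIMP3 was 1.24-fold (0.761 to 2.01) and 1.78-fold (1.03 to 3.11) of the control, and TIMP2 per TIMP3 1.26-fold (0.778 to 2.04) and 1.54-fold (0.893 to 2.68), so only TIMP1 per TIMP3 in DDX24-sh2 had an interval without 1. TIMP2 transcripts outnumbered those of MMP14 in every library, by 173 to 1 per length in Control-sh (124.6 to 249.2), 243.5 with DDX24-sh1 (175.8 to 347.9) and 180.02 with DDX24-sh2 (130.5 to 255.9).

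**Figure D4:**
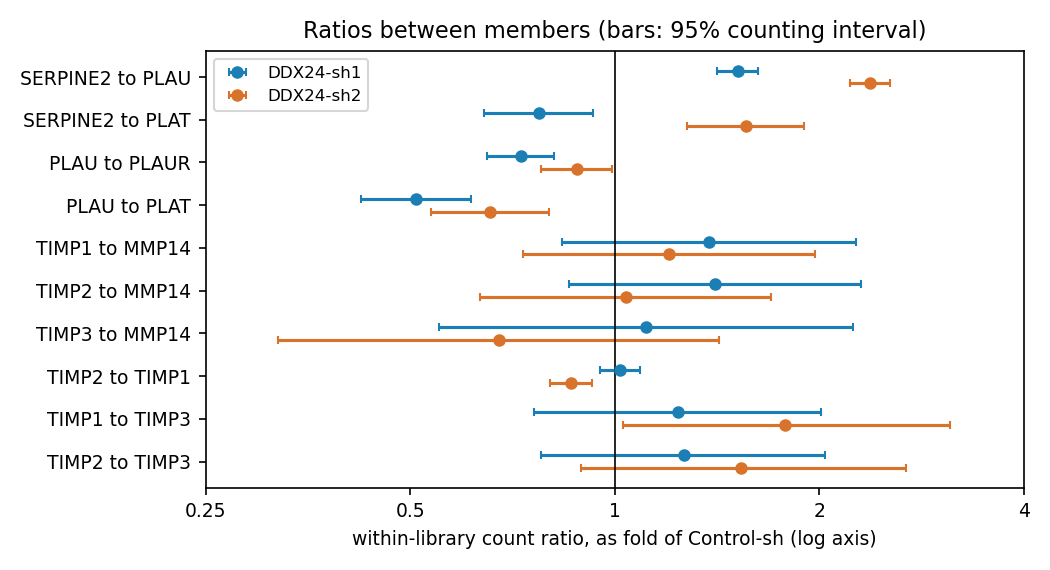
Ratio of counts of a pair of genes within each shRNA library, as fold of the same ratio in Control-sh (log axis), with bars for the 95% counting interval. SERPINE2 to PLAU lies at 1.52 and 2.38, PLAU to PLAT at 0.511 and 0.656, and the bars of the pairs with MMP14 span 1.

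For the lists that follow, the shares to read against are those of the 13984 genes, of which 34.6% had both ratios above 0, 40.2% both below 0 and 25.3% ratios of opposite sign. Of the 8 genes, 4 had both above 0, 2 both below 0 and 2 opposite. The wider plasminogen system held 24 listed genes, of which 17 passed the filter. None was 2-fold higher or lower in both libraries, 9 had both ratios above 0, 4 had both below 0 and 4 had ratios of opposite sign. The list's median was 0.25 with DDX24-sh1 and 0.01 with DDX24-sh2. Plasminogen itself (PLG) had 0 counts in every library, as had SERPINB2, another inhibitor of urokinase. The genes nearest the 2-fold limit were ITGB3, a subunit of the vitronectin receptor, whose 95, 262 and 200 counts gave log2 ratios of 1.35 and 0.98, and SERPINF2, the plasmin inhibitor antiplasmin, with 45, 70 and 72 counts and 0.52 and 0.58. LRP1, the endocytic receptor that clears activators bound to serpins, had 3444, 6361 and 4288 counts, with log2 ratios of 0.79 (interval 0.73 to 0.85) and 0.24 (0.17 to 0.30), and was picked out once these were known.

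Of 19 other serpins 7 were tested, and none was 2-fold higher or lower in both libraries. Both ratios were above 0 for 4 of the 7 (34.6% of all genes) and below 0 for 1 (40.2%), with medians of 0.11 and 0.25. SERPINH1, a collagen chaperone of the endoplasmic reticulum that inhibits no protease, had 1643, 2373 and 2380 counts and log2 ratios of 0.43 and 0.45. SERPINB9, the granzyme B inhibitor, had 536, 328 and 451 counts and -0.80 and -0.33.

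Of 21 other MMPs 6 were tested, and none passed the 2-fold limit in both libraries. Both ratios were above 0 for 2 of the 6 and below 0 for 2, near the 34.6% and 40.2% of all genes, with medians of 0.11 and 0.22. MMP2, the gelatinase that MMP14 and TIMP2 together activate, had 291, 624 and 479 counts and log2 ratios of 0.996 (interval 0.80 to 1.21) and 0.63 (0.43 to 0.85). MMP28 had 57, 110 and 107 counts and 0.83 and 0.81. MMP9 had 5, 9 and 6 counts and MMP1 0, 3 and 0, under the filter, as was MMP16 with 1, 19 and 19, named after its values were seen.

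Among 13 genes that activate or restrain MMPs, 12 were tested, with 7 above 0 in both libraries (34.6% of all genes), 3 below 0 in both (40.2%), none past the 2-fold limit in both, and medians of 0.15 and 0.14. CAV1, the coat protein of caveolae, where MMP14 is taken up, had 7433, 13201 and 15720 counts and log2 ratios of 0.73 and 0.9997. RECK, a membrane-anchored MMP inhibitor, had 164, 302 and 264 counts and 0.77 and 0.60. TIMP4, the remaining member of the inhibitor family, had 490, 774 and 608 counts and 0.56 (interval 0.39 to 0.73) and 0.23 (0.06 to 0.41), and like TIMP1 and TIMP2 it was highest in DDX24-sh1. It was named here after its values were seen.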

How the data were processed

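RNA was sequenced from 3 A549 libraries, grouped by their titles. Counts per gene, whole and not normalized, and FPKM per gene were deposited by the authors. Per the labels, Bowtie2 2.0.6, TopHat2 2.0.9, Cufflinks 2.1.1 and Cuffdiff 2.1.1 were used, with no role stated, and the counter, strandedness and build are not given in the sources used here. All 58735 identifiers, starts and ends were those of GENCODE 29 (GRCh38).

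Counts were scaled with edgeR 4.0.16 (TMM, prior count of 2 for log2 ratios) in R 4.3.3. There was 1 library for each condition, hence no test. Intervals are exact 95% conditional binomial (Clopper-Pearson) intervals for a log2 ratio, exact Poisson intervals for a level and conditional odds ratio intervals (scipy 1.17.1) for ratios between genes. A gene was called where it was at least 2-fold higher or lower, or where its counting interval lay wholly above or below 0, and those averaging under 1 CPM were left out. The steps were tested on simulated data.

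The 8 genes and the lists were chosen with earlier results of these data known. From each list were named the genes past 2-fold in both libraries or, where fewer than 2 were, the 2 genes nearest to it with the same sign. Genes most like a member were to be named only for members past 2-fold in both libraries, and none was. A BLAST 2.17.0 search for copies of the genes' transcripts found only genes at the same loci. Promoter windows came from RefSeq, for 6 of the 8 genes. The planned identity of the TIMP proteins was not computed. Alternatives were DESeq2 1.42.0 size factors, scaling by totals, the FPKM with a pseudocount of 0.1, a prior count of 0.5, other filters and limits, and the mean of the shRNA libraries.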

Additional observations from a re-analysis of the deposited data

How the results depend on the processing

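No paired analysis was possible because each condition has 1 library. Depth limits MMP14 and TIMP3, whose counts lie between 25 and 40. DESeq2 size factors, total counts and a prior count of 0.5 left all 16 ratios of the 8 genes within their counting intervals. The FPKM with shRNA labels exchanged, added after seeing the data, did so too. With those labels the FPKM are the same counts rescaled, so their agreement was fixed in advance and is no check of the ratios. The other scalings moved the median of all genes by at most 0.03. No gene of the 8 passed the limit in both libraries under any alternative, including 1.5-fold.

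With the FPKM labels as given, DDX24-sh1 and DDX24-sh2 took each other's place: PLAU -0.29 and -0.14, PLAT 0.30 and 0.79, SERPINE2 0.96 and 0.45, TIMP1 0.27 and 0.42, TIMP2 0.062 and 0.44, DDX24 -1.45 and -1.72, the median of the 8 genes 0.0345 and 0.36, and PLAUR -0.10 and 0.31, which turned its direction in DDX24-sh1. With the mean of the shRNA libraries set against the control, the log2 ratio of PLAUR was 0.11, SERPINE2 0.72, TIMP2 0.25 and DDX24 -1.61. The numbers of genes past the limit in both libraries, 167 higher and 193 lower, were 719 and 912 with no filter, 34 and 105 among genes averaging 10 CPM or more, 592 and 660 at 1.5-fold, and 37 and 56 at 1.5 in log2 units, by construction. The median of the other serpins in DDX24-sh2 was 0 with no filter, and that of the other MMPs turned to -0.18 among those averaging 10 CPM or more, where fewer genes enter.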

Other observations

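The ADAM and ADAMTS proteases, relatives of the MMPs that shed surface proteins or cut matrix proteoglycans and that TIMP3 and TIMP1 also inhibit in part, had 12 of 22 listed genes tested. Both ratios were above 0 for 7 of the 12, below 0 for 3 and of opposite sign for 2, beside 34.6%, 40.2% and 25.3% of all genes, with medians of 0.09 with DDX24-sh1 and 0.30 with DDX24-sh2. This was the only one of the lists around the 8 genes with members at least 2-fold higher in both libraries, 2 of 12 where 1.19% of all genes were. These were ADAM12, with 124, 334 and 283 counts in the control, DDX24-sh1 and DDX24-sh2 libraries and log2 ratios of 1.32 (interval 1.03 to 1.64) and 1.10 (0.80 to 1.43), and ADAMTS13, the protease of von Willebrand factor, with 26, 76 and 69 counts and 1.38 and 1.27. ADAM9, ADAM10 and ADAM17, the widely expressed sheddases, had log2 ratios between -0.29 and 0.05.

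Among the epithelial markers KRT19 had 1001, 2251 and 2728 counts and CDH1 538, 358 and 261. These were the opposite ends of that list, and both lay further from the control in DDX24-sh2, as did SERPINE2 and CAV1. PLAT, TIMP1, TIMP2, TIMP4, LRP1, MMP2 and ADAM12 were further from the control in DDX24-sh1. The genes in these groups were picked after their values were seen.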
